A study of Caenorhabditis elegans with 9 samples.

Results

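Transcripts of 3 groups of heme-binding proteins were followed in *Caenorhabditis elegans* grown with little, intermediate or abundant heme. The groups were the globins, the animal heme peroxidases with the dual oxidases, and the soluble guanylate cyclases. Members were taken by name from the array annotation, as every probe set whose single gene symbol was glb- followed by a number, mlt-7, pxn-1, pxn-2, skpo-1, skpo-2, skpo-3, bli-3, duox-2 or one of gcy-31 to gcy-37. This gave 45 of 17118 genes with a single-symbol probe set, and 56 of 22548 gene probe sets: 37 for 30 globin genes, 11 for 8 peroxidase and dual oxidase genes, and 8 for 7 guanylate cyclase genes. The globin genes *glb-19*, *glb-21*, *glb-24* and *glb-34* had no probe set with a single symbol and were not analysed here.

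Synchronized second-generation larvae were moved into the liquid medium mCeHR-2, which held hemin at 4, 20 or 500 uM, and whole worms were collected late in the L4 stage. Hemin is the chloride of iron(III) protoporphyrin and was the only factor that differed between groups by the labels, which name no strain. There were 3 biological replicates per concentration (A, B and C), each hybridised to 1 Affymetrix array of the whole genome, and the study compared 4 and 500 uM with 20 uM. The values are the authors' log2 expression values, 1 per probe set and array.

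*C. elegans* cannot make heme and depends on heme from its food, so proteins that carry a heme group depend on that supply. Globins bind oxygen or pass electrons through their heme, and worms have an unusually large globin family, much of it expressed in neurons. Dual oxidases make hydrogen peroxide at the surface of the epidermis, and heme peroxidases of the cuticle use it to cross-link tyrosines of cuticle proteins. The soluble guanylate cyclases of the worm bind oxygen at a heme and set cGMP levels in oxygen-sensing neurons.

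No transcript of the 3 families was called at any hemin concentration among the 35 member probe sets bright enough to test. The test was limma across 16911 probe sets, after the dimmest 25% (mean log2 value under 3.75) were left out, with a Benjamini-Hochberg adjusted p under 0.05 as the threshold. Between 4 and 20 uM 0 of 35 members passed, where 0.911% of all tested probe sets passed. Between 500 and 20 uM 0 of 35 passed, with a background of 0.242%, and between 500 and 4 uM 0 of 35, with a background of 2.07%. A moderated F-test over the 3 groups called 0 of 35, against 1.62% of all tested probe sets. At an unadjusted p under 0.05 the members numbered 2 between 4 and 20 uM (background 8.70%), 1 between 500 and 20 uM (6.65%), 2 between 500 and 4 uM (11.9%) and 1 by F-test (10.5%). Without 4 uM replicate A, the array described below, 36 members were tested and 0 were called, where 1.86%, 1.08% and 2.33% of all tested probe sets were called for 4 minus 20, 500 minus 20 and 500 minus 4 uM. The members with an unadjusted p under 0.05 then numbered 5, 3 and 3. The share of all tested probe sets at that unadjusted p was not counted in this fit, so these numbers have no background.

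A 95% interval, not adjusted for the number of members or contrasts, gave a range for the difference of each tested member. In each contrast the 95% interval of 32 of 35 members lay inside a 1.6-fold difference either way, the fold that the submitters used to select genes. This was 91.4% of the members, against 87%, 89.3% and 84.5% of all tested probe sets for 4 minus 20, 500 minus 20 and 500 minus 4 uM. The intervals that reached past 1.6-fold belonged to *glb-30*, *skpo-3* and *mlt-7*. Over all 56 probe sets the median log2 difference was 0.05 for 4 minus 20 uM, 0.09 for 500 minus 20 uM and 0.04 for 500 minus 4 uM. All gene probe sets had medians of 0.03, 0.02 and -0.01 for the same contrasts. Positive differences numbered 36, 44 and 34 of 56 members, against 58.2%, 55.9% and 48.1% of all gene probe sets. The contrasts share arrays, so these counts are not independent of each other.

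**Figure D1:**
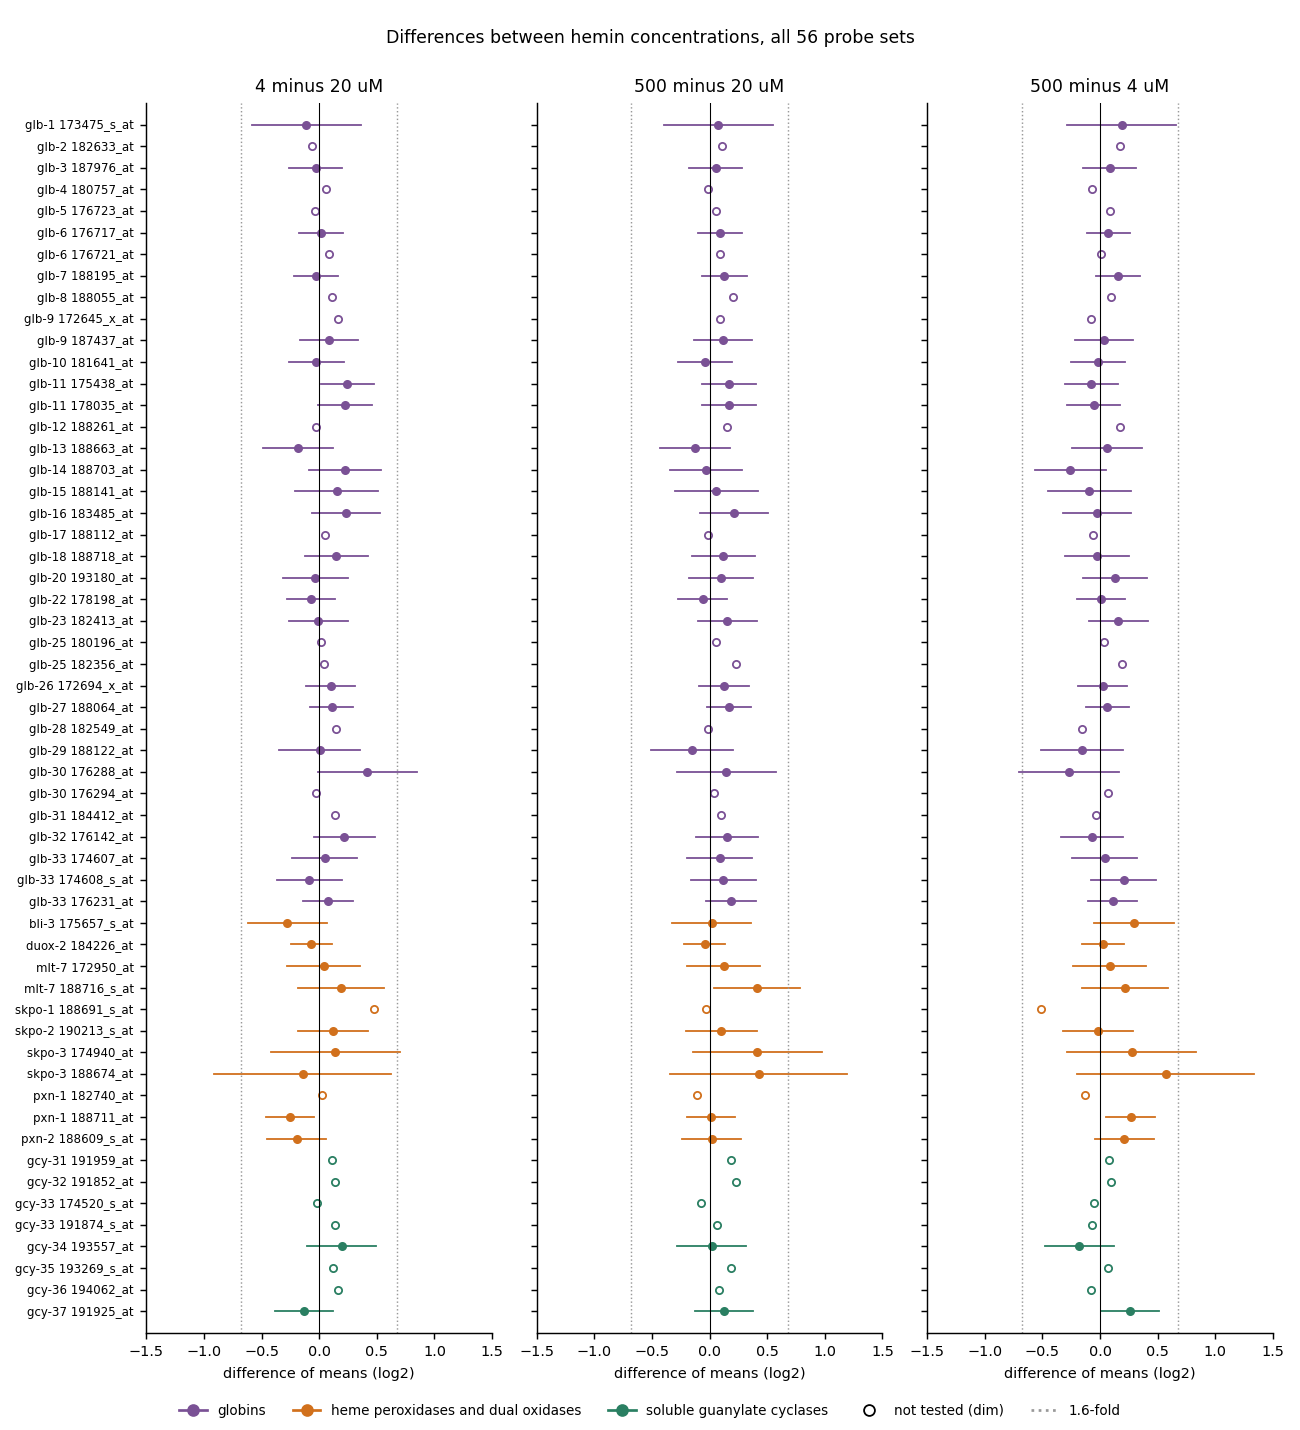
Log2 differences of group means for all 56 probe sets of the 3 families (filled points with 95% intervals: tested; open points: too dim to be tested), for 4 minus 20, 500 minus 20 and 500 minus 4 uM hemin, with 0 and a 1.6-fold difference marked. Most intervals span 0, and the widest belong to *skpo-3*.

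Groups of 3 arrays that did not overlap were counted over the 56 members and on the whole array. At 4 uM 5 of 56 probe sets lay above all 20 uM arrays and 2 below, where 7.08% of all gene probe sets lay above and 4.99% below. At 500 uM 7 lay above all 20 uM arrays and 0 below, with 8.37% above and 6.62% below on the whole array. By family, those above were 3 of 37 globin, 4 of 11 peroxidase and dual oxidase, and 0 of 8 cyclase probe sets. Against the 4 uM arrays, 3 probe sets at 500 uM lay above and 1 below, beside 6.60% and 6.13% of all gene probe sets.

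The array of 4 uM replicate A stood apart from the others. Its Spearman correlations with them were 0.9726 to 0.9849 across probe sets, and limma's array weights gave it 0.15, where the remaining 8 arrays took 0.67 to 3.93. It held the single lowest or highest value of 28 of the 56 members (50%), against 54.2% of all gene probe sets. In the peroxidase family it was the lowest of the 9 arrays for 8 of 11 probe sets, where it was the lowest for 17.7% of all gene probe sets. Values without this array therefore stand beside the results it carries. Arrays often held the same number to all digits, within a concentration or across them. Over all 9 arrays, 30 of 56 members had identical values on at least 2 arrays, as 48.4% of all gene probe sets did. Where such arrays share a concentration, a small SD can reflect repeated values.

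Marker transcripts of late development also differed between the groups. All 6 measured adult-onset genes, the vitellogenins and the adult collagen *col-19*, had higher means at 4 than at 20 uM, with a median log2 difference of 1.94 and 3 of 6 called. Their summed level, as log2, was 10.16 to 10.80 on the 4 uM arrays, 8.29 to 9.27 at 20 uM and 7.40 to 8.63 at 500 uM. Between 500 and 4 uM all 6 were called lower (median -2.48). All 13 oocyte genes and all 12 measured sperm genes had lower means at 500 than at 4 uM, and 6 of 13 and 5 of 11 tested were called. The part of developmental stage in the values below was not tested. Markers of neurons (13 genes), body wall muscle (9), intestine (7) and epidermis (7) were all bright enough to test, 0 were called, and at most 1 per list and contrast had an unadjusted p under 0.05. In the fit without 4 uM replicate A 1 of the 7 epidermis genes, *dpy-7*, was called lower at 4 than at 20 uM. In RNA of whole worms, fewer cells of a type and less RNA per cell cannot be told apart.

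**Figure D2:**
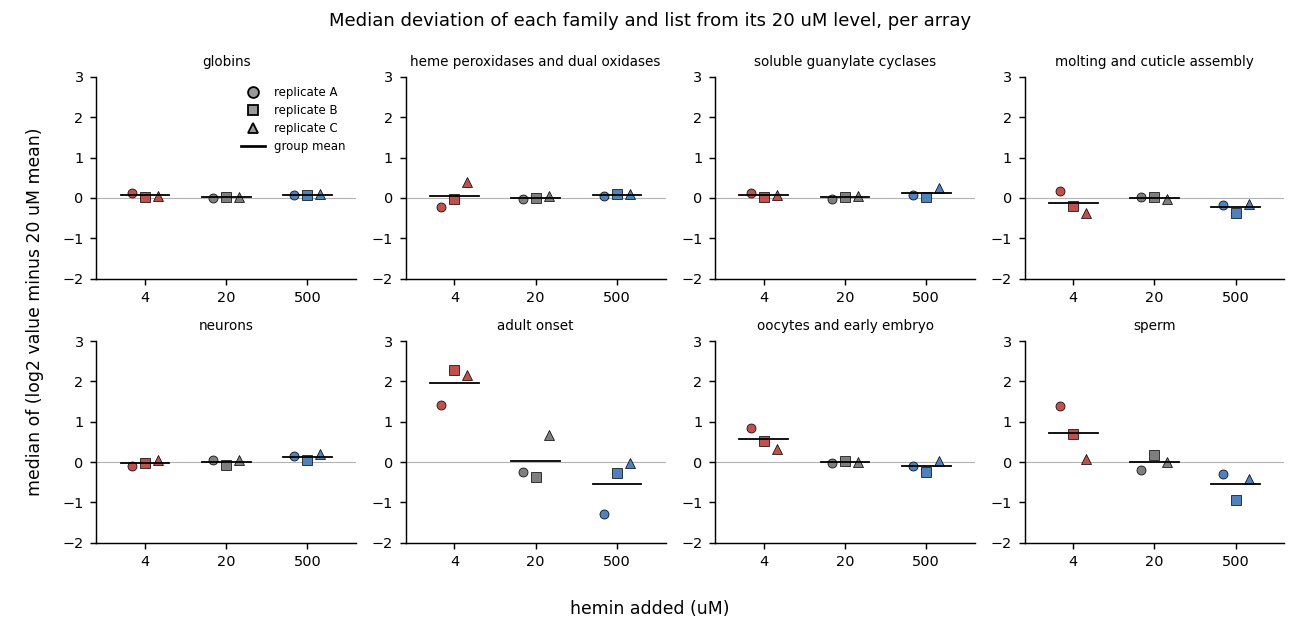
Median over each family or gene list of the log2 value minus the probe set's mean at 20 uM, for each of the 9 arrays at 4, 20 and 500 uM hemin; points are arrays A, B and C and bars are group means. The group means of the adult-onset, oocyte and sperm lists are highest at 4 uM, and the peroxidase family spans -0.23 on 4 uM replicate A to 0.38 on 4 uM replicate C.

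Of the 37 globin probe sets 24 were tested and 13 (35.1%) fell below the brightness filter, and 0 of 24 were called in any contrast. *glb-1* (ZK637.13) encodes a conventional intracellular globin of muscle. It read 9.31, 10.11 and 10.32 at 4 uM hemin, 10.05, 10.05 and 9.97 at 20 uM, and 9.999, 10.25 and 10.06 at 500 uM. Apart from the low value of 4 uM replicate A, the arrays lay within a narrow band and the groups overlapped. The difference between 4 and 20 uM was -0.11 (SE 0.21, 95% interval -0.59 to 0.36, limma adjusted p = 0.917). Without replicate A of 4 uM its sign turned, to 0.19 (SE 0.10, adjusted p = 0.538). Between 500 and 20 uM *glb-1* differed by 0.08 (interval -0.40 to 0.55, adjusted p = 0.991).

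*glb-11* (C36E8.2) was the only tested globin with an unadjusted p under 0.05 in a contrast with all arrays, and it was measured by 2 probe sets. The first read 5.73, 5.55 and 5.72 at 4 uM, 5.34, 5.38 and 5.54 at 20 uM, and 5.68, 5.46 and 5.63 at 500 uM. The second read 6.98, 6.88 and 6.99 at 4 uM, 6.78, 6.55 and 6.85 at 20 uM, and 6.84, 6.99 and 6.85 at 500 uM. In both probe sets every 4 uM array lay above every 20 uM array, and the 500 uM arrays overlapped both groups. The first gave 0.25 for 4 minus 20 uM (SE 0.10, interval 0.01 to 0.48, unadjusted p = 0.0394, limma adjusted p = 0.533), a 1.19-fold difference. The second gave 0.22 (SE 0.10, interval -0.01 to 0.45, adjusted p = 0.602). Both differences were nearly as large without 4 uM replicate A, at 0.21 each, with unadjusted p of 0.0743 and 0.0913 (adjusted p = 0.519 and 0.567).

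*glb-30* (Y22D7AR.5) had the largest difference among the tested globins, and it rested on 1 array. One probe set read 4.89, 4.17 and 4.08 at 4 uM, 3.80, 4.01 and 4.08 at 20 uM, and 4.08, 3.99 and 4.26 at 500 uM. Replicate A of 4 uM was well above all other arrays, replicate B lay just above the 20 uM arrays and replicate C overlapped them. The difference was 0.42 for 4 minus 20 uM (SE 0.19, interval -0.01 to 0.85, limma adjusted p = 0.596), and 0.16 without that array (adjusted p = 0.719). Its other probe set, below the filter, read 3.48, 2.84 and 2.98 at 4 uM and 3.12, 3.12 and 3.15 at 20 uM, a difference of -0.03. The 2 probe sets of this gene thus disagreed in sign.

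*glb-14* (F21A3.6) showed the same dependence. It read 5.04, 4.54 and 4.45 at 4 uM, 4.40, 4.45 and 4.50 at 20 uM, and 4.40, 4.46 and 4.40 at 500 uM. Between 4 and 20 uM the difference was 0.23 (SE 0.14, limma adjusted p = 0.704), and 0.05 without 4 uM replicate A (adjusted p = 0.943). *glb-16* (F46C8.7) read 4.09, 3.93 and 3.78 at 4 uM, 3.46, 3.82 and 3.82 at 20 uM, and 3.82, 3.82 and 4.10 at 500 uM. Its groups overlapped in every pair, with differences of 0.24 for 4 minus 20 uM (adjusted p = 0.684) and 0.21 for 500 minus 20 uM (adjusted p = 0.853).

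*glb-27* (W01C9.5) was the only member whose arrays at both 4 and 500 uM all lay above its 20 uM arrays. It read 4.95, 5.05 and 4.96 at 4 uM, 4.86, 4.87 and 4.91 at 20 uM, and 5.08, 5.10 and 4.95 at 500 uM. The differences were small, 0.11 for 4 minus 20 uM (SE 0.08, limma adjusted p = 0.759) and 0.17 for 500 minus 20 uM (SE 0.08, interval -0.02 to 0.36, adjusted p = 0.786). Both share the 20 uM arrays.

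*glb-33* (Y75B7AL.1) encodes a globin domain joined to a membrane region like that of neuropeptide receptors, and 3 probe sets measured it. The first read 6.48, 6.52 and 6.55 at 4 uM, 6.58, 6.25 and 6.58 at 20 uM, and 6.71, 6.35 and 6.62 at 500 uM. The second, whose probes can match other transcripts, read 4.74, 5.15 and 5.15 at 4 uM, 5.10, 5.18 and 5.02 at 20 uM, and 5.35, 5.15 and 5.15 at 500 uM. The third read 4.84, 4.78 and 4.91 at 4 uM, 4.64, 4.82 and 4.84 at 20 uM, and 5.05, 4.97 and 4.84 at 500 uM. All 3 had positive differences for 500 minus 20 uM (0.09 to 0.18, adjusted p = 0.798 to 0.978), each with overlapping groups. For 4 minus 20 uM they disagreed in sign, from -0.09 to 0.08.

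**Figure D3:**
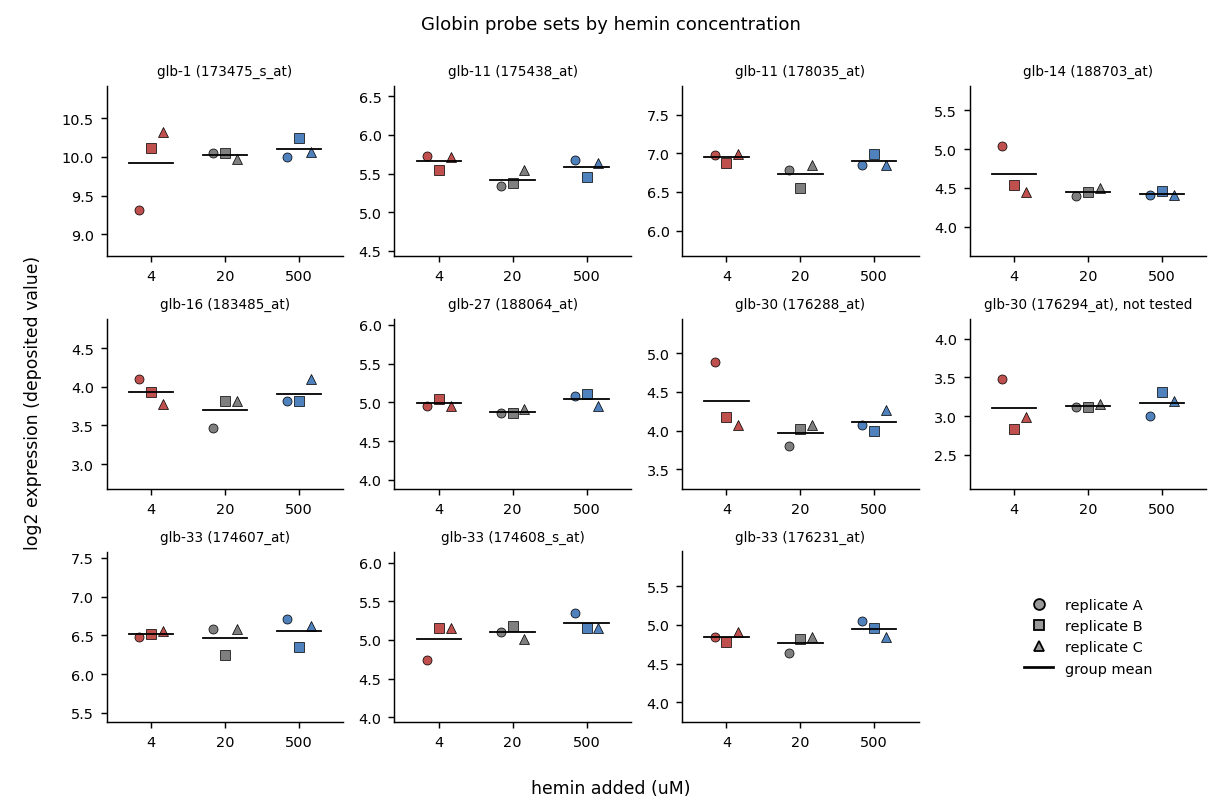
Log2 values of the globin probe sets named in the text on the 9 arrays, by hemin concentration (4, 20 and 500 uM); points are arrays A, B and C and bars are group means. *glb-11* is the gene whose 4 uM arrays clear its 20 uM arrays in both probe sets, and *glb-1*, *glb-14* and *glb-30* each have 1 outlying value on 4 uM replicate A.

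The other 23 globin genes, with 26 probe sets of which 14 were tested, read between 2.49 and 5.64. Their differences ran from -0.19 to 0.22 for 4 minus 20 uM, from -0.15 to 0.23 for 500 minus 20 uM and from -0.16 to 0.19 for 500 minus 4 uM, and the smallest adjusted p values were 0.676, 0.884 and 0.497. *glb-13* (F19H6.2) read 4.99, 4.66 and 4.45 at 4 uM, 4.91, 4.91 and 4.83 at 20 uM, and 4.83, 4.84 and 4.61 at 500 uM, with 4 uM replicate A the highest array. Its difference for 4 minus 20 uM was -0.19 with all arrays (adjusted p = 0.740) and -0.34 without that array (SE 0.10, unadjusted p = 0.00928, adjusted p = 0.186). *glb-32* (Y58A7A.6) read 3.85, 4.08 and 4.13 at 4 uM, 3.61, 3.92 and 3.87 at 20 uM, and 3.90, 3.84 and 4.10 at 500 uM, and its difference of 0.22 for 4 minus 20 uM was 0.31 without 4 uM replicate A (unadjusted p = 0.0247, adjusted p = 0.308). Below the filter, *glb-8* and 1 probe set of *glb-25* had an unadjusted p under 0.05 for 500 minus 20 uM when all gene probe sets were fitted, with differences of 0.20 and 0.23 (adjusted p = 0.578 and 0.718). Among them is *glb-5* (C18C4.1), known to tune oxygen responses in oxygen-sensing neurons. It fell below the filter, at 3.23, 3.19 and 3.13 at 4 uM, 3.36, 3.20 and 3.10 at 20 uM, and 3.27, 3.10 and 3.46 at 500 uM, with overlapping groups. *glb-12* (C52A11.2), known from redox signalling in reproduction, was also below it, at 3.67, 3.50 and 3.52 at 4 uM, 3.46, 3.85 and 3.46 at 20 uM, and 3.70, 3.56 and 3.97 at 500 uM. *glb-6* (C18C4.9), a neuronal globin, differed by 0.02 for 4 minus 20 uM and 0.09 for 500 minus 20 uM in its tested probe set (adjusted p = 0.970 and 0.949). *glb-5*, *glb-12* and *glb-6* were picked for what is known of them, and *glb-8*, *glb-13*, *glb-25* and *glb-32* for their p values, in each case after their values were seen. The family's median difference was 0.05 for 4 minus 20 uM, 0.10 for 500 minus 20 uM and 0.03 for 500 minus 4 uM. With 1 array left out in turn the medians ran from 0.04 to 0.09, 0.07 to 0.12 and -0.01 to 0.06.

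Peroxidases and dual oxidases were brighter than the filter in 9 of 11 probe sets, and 0 of 9 were called in any contrast. *bli-3* (F56C11.1) encodes the dual oxidase that supplies hydrogen peroxide for cuticle cross-linking. It read 6.76, 7.31 and 7.44 at 4 uM, 7.41, 7.46 and 7.48 at 20 uM, and 7.41, 7.49 and 7.49 at 500 uM. All 6 arrays at 20 and 500 uM read 7.41 to 7.49, and 4 uM replicate A was the lowest array. The difference between 4 and 20 uM was -0.28 (SE 0.15, interval -0.62 to 0.07, limma adjusted p = 0.682), and -0.07 without replicate A (adjusted p = 0.908). Between 500 and 4 uM it was 0.29 (interval -0.05 to 0.64, adjusted p = 0.483), and between 500 and 20 uM 0.02 (interval -0.33 to 0.36). Probes of the *bli-3* probe set can match other transcripts, and those of *duox-2* (F53G12.3), a closely similar dual oxidase gene, may be among them. *duox-2* averaged 4.39 ± 0.05, 4.45 ± 0.07 and 4.41 ± 0.00 at 4, 20 and 500 uM (SD, n = 3 arrays each). On 5 of its 9 arrays the value was identical.

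*mlt-7* (ZK430.8) encodes a secreted peroxidase needed for molting and cuticle assembly together with BLI-3. Probes of its first probe set can match other transcripts. That probe set read 7.61, 7.96 and 8.38 at 4 uM, 7.72, 7.83 and 7.83 at 20 uM, and 8.15, 8.13 and 8.32 at 500 uM. Every 500 uM array lay above every 20 uM array, and the 4 uM arrays spanned both groups. The difference of 0.41 between 500 and 20 uM (SE 0.17, interval 0.04 to 0.78, unadjusted p = 0.0346, limma adjusted p = 0.677) was a 1.33-fold difference. Its second probe set read 3.48, 3.66 and 4.11 at 4 uM, 3.74, 3.63 and 3.76 at 20 uM, and 3.88, 3.82 and 3.81 at 500 uM. There too the 500 uM arrays cleared the 20 uM arrays, by a difference of 0.12 (adjusted p = 0.965). With 4 uM replicate A left out, the first probe set gave 0.38 for 4 minus 20 uM (adjusted p = 0.235) in place of 0.19 (adjusted p = 0.781), and 0.41 for 500 minus 20 uM (adjusted p = 0.157).

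*skpo-3* (F32A5.2), a peroxidase with a ShK toxin-like domain, had the widest spread of the family. The first probe set read 6.81, 7.59 and 7.93 at 4 uM, 7.45, 7.02 and 7.45 at 20 uM, and 7.57, 7.69 and 7.90 at 500 uM. The second read 5.59, 6.77 and 7.32 at 4 uM, 6.68, 6.69 and 6.74 at 20 uM, and 7.01, 7.38 and 6.9997 at 500 uM. In both, all 500 uM arrays lay above all 20 uM arrays, and replicate A was the lowest array at 4 uM. The differences between 500 and 20 uM were 0.41 (SE 0.25, interval -0.15 to 0.97, limma adjusted p = 0.844) and 0.43 (SE 0.34, interval -0.34 to 1.19, adjusted p = 0.91). Without 4 uM replicate A, which enters them only through the shared spread, their adjusted p values were 0.253 and 0.242. For 4 minus 20 uM the probe sets gave 0.14 and -0.14 with all arrays (adjusted p = 0.912 and 0.933), and 0.46 and 0.34 without that array (adjusted p = 0.277 and 0.496). The relative *skpo-2* (C16C8.2) averaged 6.38 ± 0.24 at 4 uM, 6.26 ± 0.12 at 20 uM and 6.37 ± 0.15 at 500 uM, with overlapping groups.

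The peroxidasins *pxn-1* and *pxn-2* act in the extracellular matrix, where the mammalian peroxidasin cross-links collagen IV of basement membranes. *pxn-1* (ZK994.3) had the smallest F-test p of the tested members (unadjusted p = 0.0311, limma adjusted p = 0.391). Its tested probe set read 6.17, 6.35 and 6.18 at 4 uM, 6.56, 6.41 and 6.49 at 20 uM, and 6.44, 6.49 and 6.58 at 500 uM. All 4 uM arrays lay below all arrays at 20 and 500 uM. The difference was -0.25 for 4 minus 20 uM (SE 0.09, interval -0.46 to -0.04, adjusted p = 0.438), a 1.19-fold difference downwards, and 0.27 for 500 minus 4 uM (SE 0.09, interval 0.06 to 0.48, adjusted p = 0.285). It was -0.22 for 4 minus 20 uM without 4 uM replicate A (adjusted p = 0.427). A second, dim probe set of the gene read 3.38, 3.35 and 3.35 at 4 uM, 3.03, 3.58 and 3.40 at 20 uM, and 3.15, 3.49 and 3.06 at 500 uM, with overlapping groups and the opposite sign for 4 minus 20 uM. *pxn-2* (K09C8.5), needed for embryonic morphogenesis, read 5.71, 5.80 and 5.95 at 4 uM, 5.998, 6.17 and 5.87 at 20 uM, and 5.92, 6.17 and 5.99 at 500 uM. Its difference of -0.19 for 4 minus 20 uM (interval -0.45 to 0.06, adjusted p = 0.697) had the sign of *pxn-1*, with overlapping groups.

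*skpo-1* (F49E12.1), a peroxidase with a ShK toxin-like domain known to act with BLI-3 in epidermal defence, was below the brightness filter and is described because of its values. It read 3.88, 3.72 and 3.77 at 4 uM, 3.16, 3.41 and 3.37 at 20 uM, and 3.36, 3.19 and 3.29 at 500 uM. Every 4 uM array lay above all 6 other arrays, which overlapped each other. Fitted over all 22548 gene probe sets, *skpo-1* fell at 500 uM relative to 4 uM, by 0.51 on the log2 scale (SE 0.09, interval -0.71 to -0.31, limma adjusted p = 0.022), or 1.43-fold. That fit called 1.49% of all gene probe sets. For 4 minus 20 uM the difference was 0.48 (SE 0.09, adjusted p = 0.0517), and for 500 minus 20 uM -0.03 (adjusted p = 1). The call was lost when any of 4 arrays was left out. Leaving out 500 uM replicate B raised the adjusted p to 0.115 with a difference of -0.47, and without 500 uM replicate A, 500 uM replicate C or 4 uM replicate B it was 0.0503, 0.0811 and 0.0564. Without 4 uM replicate A the difference was -0.47 (adjusted p = 0.0313). The adult-onset markers were also highest at 4 uM, and their part in this difference was not tested. Probes of this probe set can match other transcripts, and no detection calls were used, so whether the signal at 20 and 500 uM exceeds background is unknown.

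**Figure D4:**
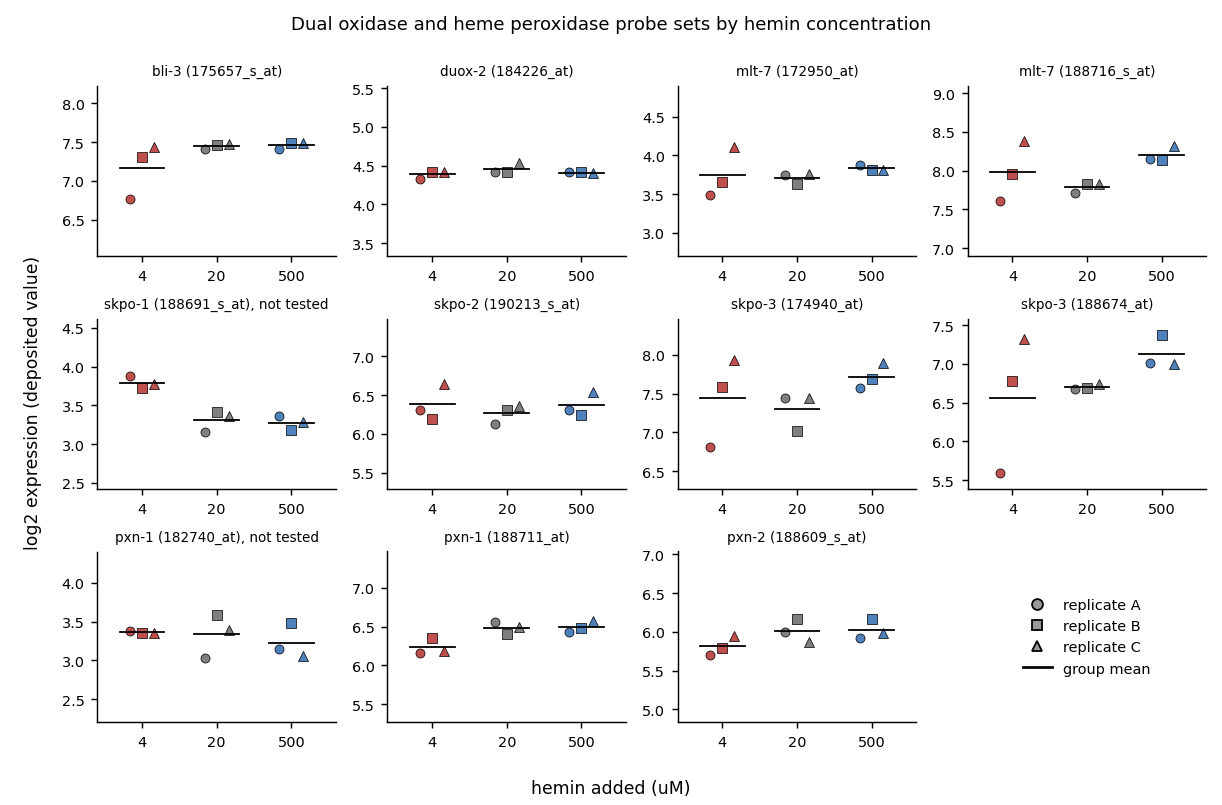
Log2 values of the heme peroxidase and dual oxidase probe sets on the 9 arrays, by hemin concentration (4, 20 and 500 uM); points are arrays A, B and C and bars are group means. *skpo-1* at 4 uM reads 3.72 to 3.88, above its other 6 arrays, and *mlt-7* and *skpo-3* at 500 uM lie above their 20 uM arrays.

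Across the 11 peroxidase and dual oxidase probe sets the median difference was 0.03 for 4 minus 20 uM, 0.02 for 500 minus 20 uM and 0.21 for 500 minus 4 uM. The last of these depended on 1 array: without 4 uM replicate A it was -0.00487. Without 4 uM replicate C the median for 4 minus 20 uM was -0.11, and without replicate A 0.16. It also turned negative without 20 uM replicate A, at -0.09, and without 20 uM replicate B, at -0.0048. The median for 500 minus 20 uM ran from 0.01 to 0.08 with 1 array left out in turn. At 500 uM 4 of the 11 probe sets lay above all their 20 uM arrays, where 8.37% of all gene probe sets did. All 4 belonged to *mlt-7* and *skpo-3* and share the same 20 uM arrays, so they are not independent.

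Genes that work with the peroxidases were read beside them. The tetraspanin gene *tsp-15* and the maturation factor gene *doxa-1*, partners of BLI-3, were both tested and neither was called. *tsp-15* averaged 6.78 ± 0.71 at 4 uM, 7.08 ± 0.12 at 20 uM and 7.27 ± 0.15 at 500 uM (adjusted p = 0.796 for 4 minus 20 uM). *doxa-1* averaged 5.46 ± 0.36, 5.31 ± 0.32 and 5.70 ± 0.30 in the same order (adjusted p = 0.891). Without 4 uM replicate A the median difference of the 2 genes moved from -0.08 to 0.19 for 4 minus 20 uM. For 500 minus 4 uM it moved from 0.37 to 0.10. Of 32 molting and cuticle genes 0 were called. At an unadjusted p under 0.05 there were 5, 4 and 3, all lower, for 4 minus 20, 500 minus 20 and 500 minus 4 uM. The backgrounds were 8.70%, 6.65% and 11.9%. Every 500 uM array lay below every 20 uM array in 15 of the 32, and above in 2. On the whole array 6.62% lay below and 8.37% above. Differences were negative in 26 of 32 for 4 minus 20 uM (median -0.14) and in 29 of 32 for 500 minus 20 uM (median -0.27). Among them *dpy-2*, a cuticle collagen gene, differed by -0.43 for 4 minus 20 uM (SE 0.11, adjusted p = 0.154), and *dpy-17*, another, by -0.59 for 500 minus 20 uM (SE 0.15, adjusted p = 0.266). Without 4 uM replicate A the median for 4 minus 20 uM was -0.30, and 1 of the 32, the cuticle collagen gene *dpy-7*, was called lower at 4 than at 20 uM, by -0.52 (adjusted p = 0.0258), against -0.29 with all arrays (adjusted p = 0.693). Of 15 tested basement membrane genes 0 were called (2, 1 and 0 at an unadjusted p under 0.05), with medians of -0.06, -0.05 and -0.06 for 4 minus 20, 500 minus 20 and 500 minus 4 uM. Without that array the median for 4 minus 20 uM was -0.11, and 1 of them, the secreted metalloprotease gene *mig-17*, was called lower at 4 than at 20 uM, by -0.64 (adjusted p = 0.0151), against -0.51 with all arrays (adjusted p = 0.163).

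In the list of the p38 and SKN-1 stress response, in which BLI-3 takes part, 1 of 8 measured genes was called with all arrays. *ctl-2*, the peroxisomal catalase that breaks down hydrogen peroxide with its own heme, averaged 8.73 ± 0.29 at 4 uM, 9.68 ± 0.12 at 20 uM and 9.75 ± 0.13 at 500 uM (SD, n = 3 arrays each). It fell by 0.95 at 4 uM relative to 20 uM (SE 0.14, limma adjusted p = 0.0124) and rose by 1.02 at 500 uM relative to 4 uM (adjusted p = 0.00501). Probes of this probe set can match other transcripts, and the catalase genes *ctl-1* and *ctl-3* had no probe set with a single symbol. *gst-4*, a glutathione transferase and SKN-1 target, differed by 0.31 for 4 minus 20 uM (adjusted p = 0.703) and -0.36 for 500 minus 4 uM (adjusted p = 0.485). With 4 uM replicate A left out *gst-4* was called as well, at 0.56 for 4 minus 20 uM (SE 0.12, adjusted p = 0.0455) and -0.61 for 500 minus 4 uM (adjusted p = 0.0255), opposite in sign to *ctl-2*.

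Of the 8 soluble guanylate cyclase probe sets 6 (75%) fell below the brightness filter, where 25% of all gene probe sets did, and 0 of the 2 tested were called. *gcy-35* and *gcy-36* encode oxygen sensors of the URX, AQR and PQR neurons. The *gcy-36* (C46E1.2) probe set read 3.44, 3.44 and 3.67 at 4 uM, 3.44, 3.20 and 3.43 at 20 uM, and 3.44, 3.42 and 3.46 at 500 uM. For *gcy-35* (T04D3.4), the values were 3.42, 3.13 and 3.08 at 4 uM, 3.02, 3.13 and 3.13 at 20 uM, and 3.30, 3.10 and 3.45 at 500 uM. The groups overlapped for both genes.

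*gcy-37* (C54E4.3), expressed in the same neurons, was one of the tested members. It read 3.86, 3.73 and 3.78 at 4 uM, 3.98, 3.90 and 3.90 at 20 uM, and 3.90, 3.94 and 4.31 at 500 uM. All 4 uM arrays lay below the arrays at 20 and 500 uM. The difference was 0.26 for 500 minus 4 uM (SE 0.11, interval 0.01 to 0.51, unadjusted p = 0.0452, limma adjusted p = 0.405) and -0.14 for 4 minus 20 uM (adjusted p = 0.771). *gcy-34* (M04G12.3), the other tested cyclase, read 4.21, 3.82 and 4.03 at 4 uM, 3.85, 3.84 and 3.79 at 20 uM, and 4.07, 3.60 and 3.85 at 500 uM. Its groups overlapped, with differences of 0.20 for 4 minus 20 uM (adjusted p = 0.724) and 0.02 for 500 minus 20 uM, so *gcy-34* and *gcy-37* had opposite signs at 4 uM.

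The other cyclase probe sets, those of *gcy-31*, *gcy-32* and *gcy-33*, read between 2.69 and 3.60, and none had groups that did not overlap. When all gene probe sets were fitted, *gcy-32* (C06B3.8) differed by 0.23 for 500 minus 20 uM (unadjusted p = 0.0499, limma adjusted p = 0.844). *gcy-31* and *gcy-33* serve the BAG neurons, which respond to falling oxygen. *gcy-31* (T07D1.1) read 3.60, 2.86 and 2.94 at 4 uM and 2.91, 3.06 and 3.08 at 20 uM, with 4 uM replicate A the highest array. The 2 probe sets of *gcy-33* (F57F5.2) differed by -0.02 and 0.14 for 4 minus 20 uM. The family's median difference was 0.12 for 4 minus 20 uM, 0.10 for 500 minus 20 uM and 0.01 for 500 minus 4 uM. Leaving out 1 array moved these medians: the first was 0.06 without 4 uM replicate A, the second 0.04 without 500 uM replicate C, and the third ran from -0.04 to 0.03 over the arrays left out in turn.

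**Figure D5:**
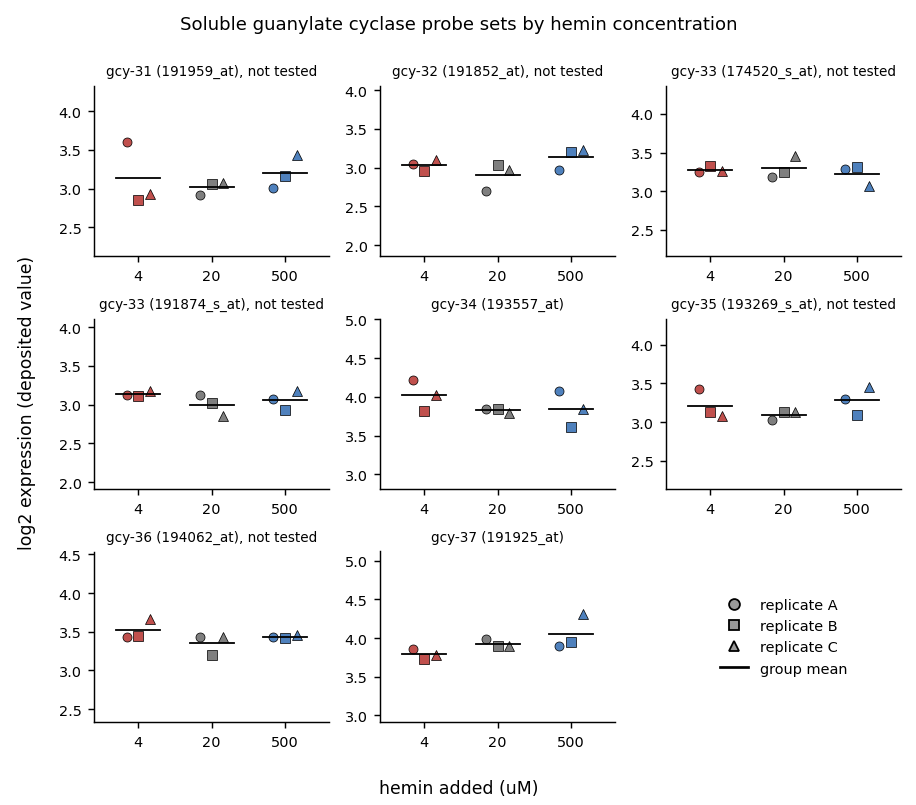
Log2 values of the 8 soluble guanylate cyclase probe sets on the 9 arrays, by hemin concentration (4, 20 and 500 uM); points are arrays A, B and C and bars are group means. Values lie between 2.69 and 4.31, 6 of the 8 probe sets were below the brightness filter, and the *gcy-37* arrays at 4 uM lie below its others.

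Other genes of cGMP signalling and oxygen sensing were read in the same way. Of 18 tested members of that list 0 were called, and at an unadjusted p under 0.05 there was 1 for 4 minus 20 uM, 2 for 500 minus 20 uM and 2 for 500 minus 4 uM. *pde-3*, a cyclic nucleotide phosphodiesterase gene, differed by 0.37 for 500 minus 4 uM (SE 0.13, adjusted p = 0.248). *flp-18*, a neuropeptide gene, differed by 0.24 for 500 minus 20 uM (SE 0.09, adjusted p = 0.64). Of 12 tested receptor-type guanylate cyclases 0 were called and 0 had an unadjusted p under 0.05 in any contrast, with medians over 27 measured genes of 0.07, 0.04 and -0.02. General neuronal markers, 13 of 13 tested, had medians of 0.05 for 4 minus 20 uM, 0.13 for 500 minus 20 uM and 0.12 for 500 minus 4 uM, and 0 were called. Their summed log2 level was 11.52 to 11.66 at 4 uM, 11.51 to 11.64 at 20 uM and 11.64 to 11.75 at 500 uM.

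The hypoxia pathway, which shares oxygen as its input with these cyclases, had 7 of 9 listed genes measured and 0 calls with all arrays. *hif-1* and *egl-9* had no probe set with a single symbol. At an unadjusted p under 0.05 there were 2, 4 and 3, all lower, for 4 minus 20, 500 minus 20 and 500 minus 4 uM. The backgrounds were 8.70%, 6.65% and 11.9%. *rhy-1*, a regulator of the hypoxia factor HIF-1, averaged 7.78 ± 0.54 at 4 uM, 8.39 ± 0.22 at 20 uM and 7.20 ± 0.31 at 500 uM. It differed by -1.19 for 500 minus 20 uM (SE 0.25, limma adjusted p = 0.147). *cysl-2*, a HIF-1 target, differed by -0.49 (adjusted p = 0.29). The list's medians were -0.29 for 4 minus 20 uM and -0.49 for 500 minus 20 uM, the first being -0.60 without 4 uM replicate A. With that array left out, 3 of 7 were called lower in each of these contrasts, which share the 20 uM arrays. That fit called 1.86% and 1.08% of all tested probe sets. The genes were *rhy-1*, *nhr-57* and *phy-2* for 4 minus 20 uM, and *rhy-1*, *phy-2* and F22B5.4 for 500 minus 20 uM.

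Of the 45 genes 10 had several probe sets. All probe sets of a gene had the same sign in 5 of 10 genes for 4 minus 20 uM, 8 of 10 for 500 minus 20 uM and 7 of 10 for 500 minus 4 uM. *glb-11* was the closest pair, with differences 0.02 apart for 4 minus 20 uM, and *glb-30* was the farthest, at 0.45 apart. The median within-group SD was 0.139 for the members and 0.142 for all gene probe sets, and with 3 arrays per group the median SE of a difference among the tested members was 0.12.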

How the data were processed

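Values were used as deposited, on a log2 scale between 2.02 and 14.37, and the medians of the 9 arrays lay between 5.43 and 5.57, the highest being that of 4 uM replicate A. Any between-array normalization was the authors'. MAS5 and RMA are listed in the submitters' processing notes with no version, and the sources used here do not say which one made the table. Such normalization and probe summarisation can compress differences among dim probe sets. Of 22625 probe sets 77 array controls were left out. Names came from the platform annotation, where 20766 probe sets had 1 symbol, 887 several and 895 none, and 0 member symbols differed from the current table. By name suffix, some member probe sets hold probes that can match other transcripts. They belong to *glb-1*, *glb-9* (the dimmer), *glb-26*, *glb-33* (second), *bli-3*, *mlt-7* (first), *pxn-2*, *skpo-1*, *skpo-2*, *gcy-33* and *gcy-35*.

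Limma 3.58.1 in R 4.3.3 fitted 1 mean per concentration over all 9 arrays, with 6 residual degrees of freedom and a variance prior that follows the mean. P-values of contrasts were two-sided and adjusted within a contrast, and F-test p-values were adjusted over the F-tests. The adjustment ran over 16911 probe sets in the main fit and over 22548 where all gene probe sets were fitted. The step was tested on simulated data. The 3 replicates are biological by the design text, and the fit did not pair arrays by letter. Deviations of arrays with the same letter correlated at -0.15 to 0.29, and of arrays with different letters at -0.33 to 0.31. Centring within groups of 3 constrains these correlations, so they cannot show whether the letters pair the arrays.

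Members and lists were chosen with earlier results of these data known. The named members were, per family, those with the smallest F-test p (up to 6 globins, 4 peroxidases and 4 cyclases) and the 3 probe sets with the highest mean, beside any called; of each list up to 4 genes with the smallest p could be named. Others were picked after their values were seen: *skpo-1*, *skpo-2*, *duox-2*, *glb-5*, *glb-6*, *glb-8*, *glb-12*, *glb-13*, *glb-25*, *glb-32*, *gcy-31*, *gcy-32*, *gcy-33*, *gcy-35* and list genes called without 4 uM replicate A. Alternatives covered normalization, centring, filters, variance priors, a replicate block, array weights, 6-array fits, a fold threshold and each array left out. Tables and figures used pandas 2.3.3, Python 3.11.15 and matplotlib 3.10.9. Sequences and coordinates were not used here.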

Additional observations from a re-analysis of the deposited data

How the results depend on the processing

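Under quantile normalization, centring of each array, a filter of 50%, other variance priors, array weights, the 6 arrays of a contrast, an added 1.6-fold threshold and each array left out, 0 member probe sets were called in any contrast or F-test. An F-test could not be made from 6 arrays. With no filter, with only the dimmest 10% left out, or with no filter and 4 uM replicate A left out, 1 member, *skpo-1*, was called for 500 minus 4 uM and 1, the same gene, by F-test; the second and the last of these settings were chosen after seeing the data. The replicate block gave 0 called members in each contrast on the filtered table, where it moved calls over all probe sets to 148 for 4 minus 20 uM, 31 for 500 minus 20 uM, 321 for 500 minus 4 uM and 236 by F-test. Whether the letters pair the arrays is not known, so the block is given as an alternative. In the unfiltered fit it moved the adjusted p of *skpo-1* for 500 minus 4 uM to 0.0584, and the 6 arrays of the contrast gave 0.0697. In the unfiltered fit, array weights gave *skpo-1* an adjusted p of 0.00384 for 4 minus 20 uM. With these weights 4.88% of all gene probe sets were called in that contrast, against 0.656% without weights. The cause was not tested.

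Calls over all probe sets moved more. For 4 minus 20 uM they numbered 154, against 899 with array weights, 86 from 6 arrays, 313 without a filter and 4 uM replicate A, and 69 to 315 with 1 array left out. For 500 minus 20 uM 41 were called, against 204, 203, 177 and 8 to 182 in the same order. For 500 minus 4 uM 350 were called, against 813 with array weights, 159 from 6 arrays and 165 to 681 with 1 array left out. The F-test called 274, against 1085 with array weights, 494 without a filter and 4 uM replicate A, and 140 to 507 with 1 array left out.

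Signs of uncalled members turned as follows. Array weights gave *glb-1* 0.12 for 4 minus 20 uM and -0.038 for 500 minus 4 uM, and for 500 minus 4 uM 0.019 for both *glb-11* (first probe set) and *glb-16*. For 4 minus 20 uM they gave 0.064 for *glb-33* (second probe set) and 0.12 for *skpo-3* (second). Quantile normalization gave *glb-16* 0.025 for 500 minus 4 uM, *mlt-7* (second) -0.019 for 4 minus 20 uM and *gcy-34* -0.0030 for 500 minus 20 uM. Centring gave *glb-16* 0.0096 and *mlt-7* (second) -0.0071 in the same contrasts. Without a filter and 4 uM replicate A, the values for 4 minus 20 uM were 0.19 for *glb-1*, 0.052 for *glb-33* (second) and 0.34 for *skpo-3* (second). For 500 minus 4 uM they were -0.11 for *glb-1*, 0.056 for *glb-16*, -0.042 for *skpo-3* (first) and -0.051 for *mlt-7* (second).

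With 1 array left out, the ranges that crossed 0 for 4 minus 20 uM were -0.31 to 0.19 for *glb-1*, -0.060 to 0.10 and -0.16 to 0.052 for *glb-33* (first and second), -0.11 to 0.46 and -0.52 to 0.34 for *skpo-3*, and -0.0022 to 0.17 (second) and -0.0061 to 0.38 (first) for *mlt-7*. For 500 minus 20 uM they were -0.020 to 0.20 for *glb-33* (first), -0.026 to 0.051 for *pxn-1*, -0.055 to 0.096 for *pxn-2*, -0.0014 to 0.042 for *bli-3*, -0.099 to 0.14 for *gcy-34*, -0.0051 to 0.20 for *gcy-37* and -0.11 to 0.014 for *skpo-1* without a filter. For 500 minus 4 uM they were -0.11 to 0.39 for *glb-1*, -0.12 to 0.056 for *glb-16*, -0.037 to 0.15 for *glb-33* (first), -0.042 to 0.52 for *skpo-3* (first) and -0.051 to 0.097 for *mlt-7* (second).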
